A study of Mus musculus with 8 samples.

Results

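Cd44, the main cell-surface receptor for hyaluronan, was examined together with Has1, Has2 and Has3, the enzymes that make hyaluronan, and Hmmr, a second hyaluronan-binding protein that also works on the mitotic spindle. These 5 genes, of 21887 protein-coding genes on assembled mouse chromosomes, were taken as a named list. Cd44 was chosen by a value measured in these libraries, its gain in kb under distal H3K27ac peaks in ASC over FISC, defined below. The other 4 were listed beside it as genes of the same pathway. H3K27ac is the acetylated form of histone H3 that marks active promoters and enhancers. It was mapped by ChIPmentation, in which antibody-bound chromatin is cut and tagged by a transposase, in muscle stem cells (satellite cells) of C57BL/6 mice. ASC are activated cells from skeletal muscle 2.5 days after barium chloride injury. FISC were isolated from muscle that had no treatment. Each condition had 2 H3K27ac libraries, each with its own deposited peak list in mm10, and the 4 input libraries entered no comparison. The labels do not say whether replicates came from separate animals, so p-values measure only the spread between these libraries, which may be technical.

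Hyaluronan is a long unbranched sugar polymer of the matrix round cells. Has enzymes in the plasma membrane build it from activated sugars and push it out of the cell, hyaluronidases and related proteins cut it, and receptors such as Cd44 bind it and link it through ezrin-type adaptors to the actin skeleton. In injured tissue hyaluronan is laid down early in the provisional matrix through which cells migrate, and Cd44 is widely used as a marker of activated and migrating cells.

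The promoters of Cd44, Hmmr and Has1 are shown because they are the ones of the 5 genes found in the promoter table used, and because peaks over them can be read base by base. The sequences are RefSeq's (GRCm38.p6, the assembly of mm10), all on the minus strand, from 250 bases before to 30 after the annotated start, and capitals mark motif matches. Entries for 3 of the 5 genes were matched, and Has2 and Has3 are named only.
Cd44 (chr2:102901636-102901915): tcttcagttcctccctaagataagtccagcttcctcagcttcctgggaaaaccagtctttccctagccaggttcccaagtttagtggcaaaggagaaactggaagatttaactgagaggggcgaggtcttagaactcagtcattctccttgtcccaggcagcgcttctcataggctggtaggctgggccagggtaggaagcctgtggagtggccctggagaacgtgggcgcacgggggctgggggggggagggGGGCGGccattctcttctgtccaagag
Hmmr (chr11:40733408-40733687): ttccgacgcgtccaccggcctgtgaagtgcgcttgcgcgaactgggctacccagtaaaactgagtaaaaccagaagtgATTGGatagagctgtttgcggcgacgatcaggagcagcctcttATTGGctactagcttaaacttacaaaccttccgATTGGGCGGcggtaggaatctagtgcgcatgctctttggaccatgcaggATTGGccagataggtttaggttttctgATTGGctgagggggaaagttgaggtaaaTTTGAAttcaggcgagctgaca
Has1 (chr17:17855159-17855438): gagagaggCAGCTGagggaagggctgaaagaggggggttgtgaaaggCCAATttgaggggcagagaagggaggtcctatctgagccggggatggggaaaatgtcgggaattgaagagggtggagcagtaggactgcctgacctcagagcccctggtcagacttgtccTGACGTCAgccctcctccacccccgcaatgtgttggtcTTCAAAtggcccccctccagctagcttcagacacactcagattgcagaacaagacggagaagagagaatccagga
Of these 280 bases, the Cd44 promoter had 280, 280, 280 and 220 under a peak in ASC replicates 1 and 2 and FISC replicates 1 and 2. The Hmmr promoter had 280 and 280 covered bases in ASC and 85 and 76 in FISC, so in FISC only part of it lay under a peak. The Has1 promoter had 0 and 171 in ASC and 0 and 200 in FISC, so one library of each condition had no peak there and the conditions did not separate.

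Motifs were searched on both strands as 6 letter patterns. TGANTCA stands for the AP-1 site and TGACGTCA for the cyclic AMP response element. The GC box was searched as GGGCGG and the CCAAT box by its own letters. CAGCTG is one form of the E-box. The CHR element of cell cycle genes was searched as TTTGAA. Hmmr held CCAAT, on the opposite strand, at 5 positions (-172, -129, -96, -47 and -20 from the start), a GC box at -93 that overlaps the match at -96, and TTTGAA at 9. Over all 32851 promoter windows of this length, 36.1% held CCAAT, 34.7% the GC box and 17.2% TTTGAA. Cd44 held a GC box at 4 and no other of these patterns. Has1 held TGACGTCA at -83, found in 1.74% of windows, CAGCTG at -242 (14.9%), CCAAT at -203 and, on the opposite strand, TTTGAA at -45. TGANTCA, in 7.46% of all windows, was in none of the 3. A match describes letters and not binding.

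A locus is taken as the gene body and 50 kb beyond each end, and its breadth is the kb under peaks inside it. The lists hold 50154 and 54700 peaks in ASC and 45014 and 43092 in FISC, covering 49.2 and 57.7 Mb against 34.4 and 33.7 Mb. Read counts are not in the lists, and the number and length of peaks in a list depend on them. The ASC lists were longer, and of 17542 loci tested with limma, 50.3% rose and 5.49% fell at an adjusted p under 0.05, and the median difference was 1.32 kb. After division by each library's total covered length, 4062 loci rose and 6089 fell, and the median was -0.39 kb. With lists trimmed to equal covered length, 3389 rose and 3458 fell. In 71.2% of loci the lower ASC value exceeded the higher FISC value, and in 9.91% the reverse held. All 5 genes here were of the first kind. Of start windows, 62.1% were of that kind and 10.6% of the reverse. Those of Cd44, Has1, Has2 and Hmmr were of the first kind and those of Has3 of neither.

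Cd44 (gene 12505, chr2:102811141-102901669, transcribed from the higher coordinate) had by far the broadest acetylation of the 5 in ASC. Its locus held 36.6 and 43.4 kb under peaks in ASC and 7.65 and 7.87 kb in FISC. Both ASC libraries thus lay far above both FISC libraries, which differed little from each other. The means were 40.0 ± 4.83 kb and 7.76 ± 0.151 kb (SD, n = 2), a difference of 32.2 kb and a ratio of 5.15. Peaks numbered 23 and 30 in ASC against 11 and 12 in FISC. In the ASC libraries 19.2 and 22.8% of the 190.5 kb locus was acetylated, and 4.02 and 4.13% in FISC. As the gene was chosen for this difference, it is described without a test, and its place among loci (15 of 17542 by difference) is no finding. The difference was 22.7 kb after division by total covered length and 21.0 kb at equal covered length. Since these are bulk libraries, acetylation in more of the cells and longer acetylation in each cell cannot be told apart.

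The measure behind the choice was rebuilt as the kb under peaks outside every start window (2 kb each side of a start) and nearest to the gene's start within 50 kb. By it Cd44 had 26.95 and 32.0 kb in ASC against 4.81 and 4.69 kb in FISC. With annotated starts, that difference of 24.7 kb ranked 7 of 9392 genes. The leading gene was Septin9, a septin of the cytoskeleton, with 48.4 kb, so the words "longest distal gain" of the choice did not hold under this version of the measure. Has2 ranked 359 by the same measure with 6.47 kb, Has1 2166 with 1.73 kb and Has3 6106 with 0.12 kb. Hmmr had no such peak assigned in any library.

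**Figure D1:**
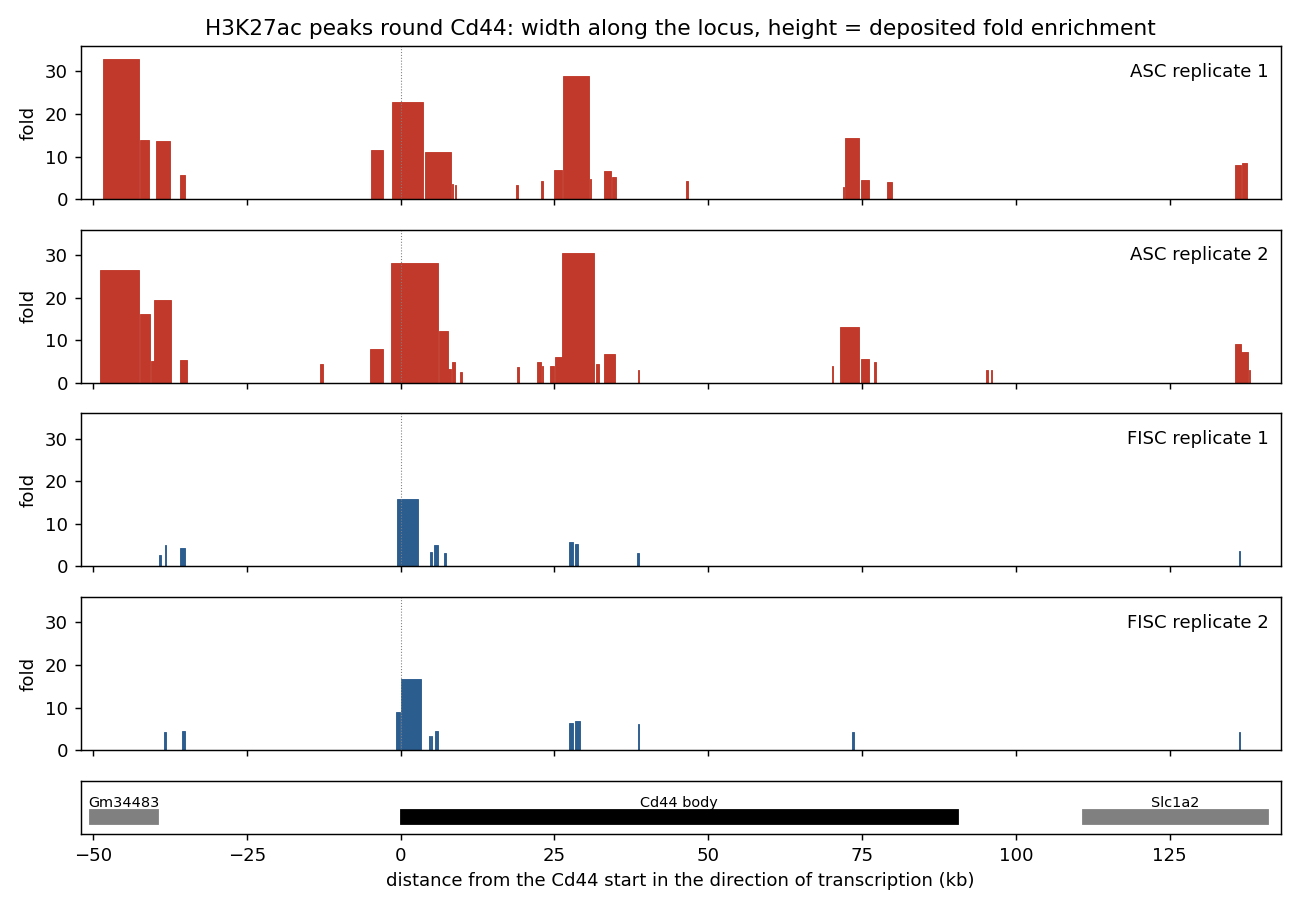
Peaks of the 4 libraries round Cd44, by distance from its start in the direction of transcription (kb, x axis) and deposited fold enrichment (y axis, 1 panel a library); the lowest panel shows gene bodies. The blocks upstream near -45 kb and inside the gene near 28 kb are wide in both ASC libraries and short or missing in both FISC libraries, while the start carries a block in all 4.

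Acetylation at Cd44 was placed in blocks. At the start itself the window of 2 kb each side held 3.40 and 3.59 kb in ASC and 2.65 and 2.67 kb in FISC. The start was therefore acetylated in FISC too, and its window made up 2.6% of the difference at the locus. That share was limited in advance, as the window spans only 4 kb and was already covered over most of its length in FISC. Cd44 was also chosen for its gain outside start windows. The shares of the start and of the other parts given next therefore describe the choice and are no finding. The gene body held 21.1 and 24.2 kb against 5.42 and 6.08 kb, which is 52.5% of the difference. The 50 kb upstream held 13.7 and 16.4 kb against 2.03 and 1.58 kb, or 41.1%. The 50 kb beyond the 3' end held 1.75 and 2.79 kb against 0.2 and 0.201 kb, or 6.43%. Slc1a2, a glutamate transporter, is the one other protein-coding gene whose body reaches into the locus. It lies 20.4 kb beyond the 3' end of Cd44, and its start window had 0 kb in every library.

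The strongest upstream block lay 42.5 to 48.8 kb before the start (chr2:102944190-102950505), inside the body of the non-coding gene Gm34483. Over the whole locus, peaks outside every start window held 33.2 and 39.8 kb in ASC and 5.01 and 5.20 kb in FISC. The block measured 5.76 and 6.32 kb in ASC, with fold enrichments of 32.8 and 26.6 over local background, and no FISC library had a peak there. These are the authors' fold values, which place a peak within its own list and are not read here as a difference between lists. In both ASC lists the peak was wider than 99.5% of all peaks. Next to it, chr2:102942448-102944076 held 1.49 and 1.61 kb in ASC and nothing in FISC. The neighbouring region chr2:102938995-102941695 held 2.35 and 2.70 kb against 0.577 and 0.404 kb, so this side of the block had a peak in all 4 libraries. A further upstream region (chr2:102936396-102937550) had 0.827 and 1.12 kb in ASC and 0.814 and 0.411 kb in FISC, and its libraries hardly separated. Close to the promoter, chr2:102904476-102906626 held 1.92 and 2.15 kb in ASC alone.

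Inside the gene the main block lay 26.3 to 31.4 kb after the start (chr2:102870298-102875411). It held 4.55 and 5.11 kb in ASC against 1.12 and 1.44 kb in FISC, and its highest fold enrichment in the ASC lists was 28.9 and 30.6. The block thus had short peaks in FISC too. A more distant block 71.4 to 74.6 kb after the start (chr2:102827100-102830258) held 2.48 and 3.16 kb in ASC, none in FISC replicate 1 and 0.305 kb in FISC replicate 2. Whether these blocks lie in introns or exons was not examined here. Round the start, peaks merged into one region of 9.81 kb (chr2:102893439-102903251) with 9.34 and 9.56 kb covered in ASC and 4.74 and 4.83 kb in FISC. Within it the highest peak had a fold enrichment above 90.2 and 95.8% of peaks in the ASC lists, and above 93.1 and 93.6% of those in the FISC lists. The acetylated stretch at the start thus reached further into the gene in ASC. The 4 libraries merged into 31 regions at the locus, of which 10 had a peak in both ASC libraries and no FISC library, 5 in all 4 and none in both FISC libraries alone. The 10 regions of ASC held 48.5% of the difference in covered length and the 5 shared ones 35.2%. Regions of ASC alone were 19.9% of all regions of the genome and held 62.9% of its net difference. Those with a peak in all 4 libraries held 42.0%.

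**Figure D2:**
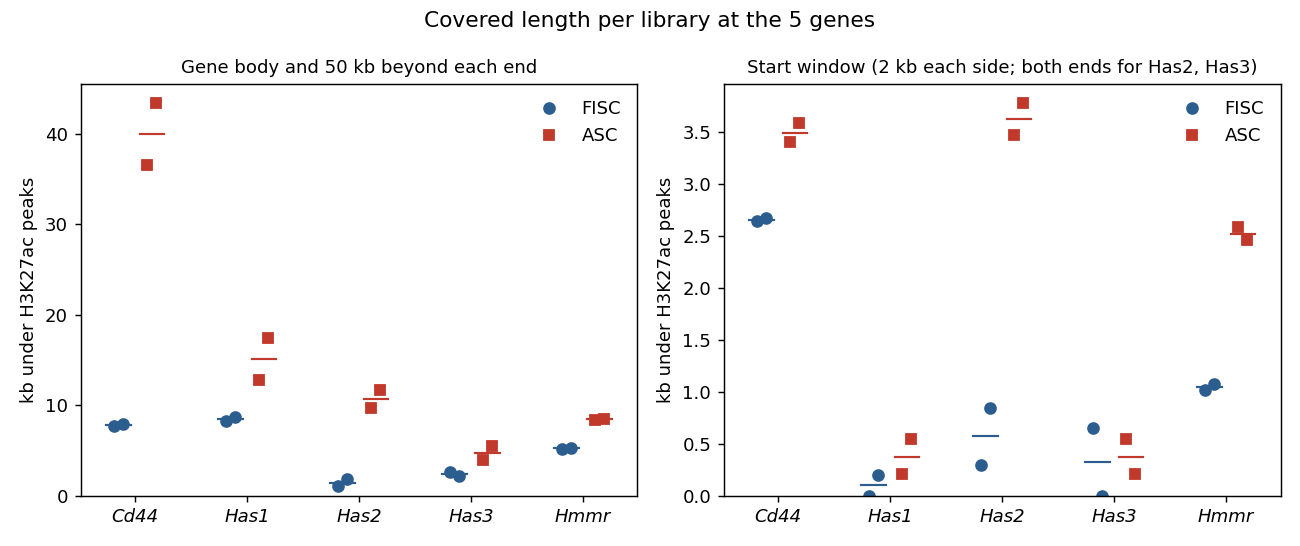
Kb under H3K27ac peaks per library (y axes) for the 5 genes (x axes), in the locus (left) and the start window (right); points are libraries and lines are means of the 2 libraries. Cd44 stands at 36.6 and 43.4 kb in ASC in the left panel, and Has2 goes from under 1 kb to over 3 kb in the right one.

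Among the synthases, Has2 stood out. Has2 (gene 15117, chr15:56665627-56694546), the synthase that makes most hyaluronan in development, had 9.73 and 11.7 kb in its locus in ASC against 1.09 and 1.81 kb in FISC. The difference of 9.25 ± 0.77 kb (SE) passed the limma test (adjusted p = 1.5e-05), beside 50.3% of all loci that rose, and 95.2% of tested loci had a smaller difference. Start windows are 2 kb each side of the annotated start. For genes with no start in the table used, such as Has2, Has3 and Derpc (below), they are 2 kb each side of both gene ends. Those of Has2 held 3.47 and 3.78 kb in ASC and 0.299 and 0.844 kb in FISC, all at the end with the higher coordinate. This difference of 3.05 ± 0.231 kb passed as well (limma adjusted p = 0.00268), where 26.7% of 12835 tested start windows rose and 3.59% fell. Both differences passed under each of the 13 alternatives run on them, with a highest adjusted p of 0.0181 for the locus and 0.0429 for the windows.

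The peak at that end of Has2 (chr15:56691784-56696089) measured 4.23 and 4.26 kb in ASC. Its fold enrichment was 29.9 and 28.0 in ASC, above 95.6% of peaks in each list. The region also covers the antisense non-coding gene Has2os, and peaks carry no strand. The 50 kb below the gene held 3.49 and 5.02 kb against 0.789 and 0.968 kb, and the 50 kb above it 3.24 and 3.93 kb against none, which includes the outer part of the peak at the end. Outside the windows at the gene ends lay 6.26 and 7.89 kb in ASC and 0.789 and 0.968 kb in FISC, 67.0% of the difference. Distant regions of ASC alone included a pair above the gene, with 0.768 and 1.06 kb (chr15:56720370-56721426) and 0.999 and 1.10 kb (chr15:56721532-56722626). No other protein-coding gene overlaps the Has2 locus. Of its 13 regions 7 had a peak in both ASC libraries alone, and none in both FISC libraries alone, beside 19.9 and 7.3% of all regions.

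Has1 rose in its locus, but the difference at its start did not pass the test. Has1 (gene 15116, chr17:17833691-17855589) had 12.8 and 17.4 kb in its locus in ASC against 8.22 and 8.73 kb in FISC, without overlap. The difference of 6.60 ± 1.54 kb passed (limma adjusted p = 0.00511), but not after division by total covered length (1.38 kb, 0.167) nor at equal covered length (0.988 kb, 0.45). It was also lost without FISC replicate 1 (6.35 kb, limma adjusted p = 0.0837) and without FISC replicate 2 (6.86 kb, 0.0563). The same held with flanks of 20 kb (limma adjusted p = 0.065), with peaks of at least 5-fold enrichment (0.0702) and with no filter on uncovered loci (0.0939). The start window held 0.204 and 0.541 kb in ASC and 0 and 0.2 kb in FISC (limma adjusted p = 0.208), higher in ASC by 0.27 ± 0.148 kb (SE). The widest peaks of the locus lay elsewhere, and their covered length overlapped between conditions. One region (chr17:17825510-17831363) lies at the start of Spaca6, a sperm membrane gene, and over the microRNA genes Mir99b, Mirlet7e and Mir125a. It held 4.01 and 5.57 kb in ASC and 5.18 and 5.07 kb in FISC. The start window of Spaca6 held 0.797 and 2.10 kb in ASC and 1.91 and 1.80 kb in FISC (limma adjusted p = 0.489). Another (chr17:17836214-17839493), within the bodies of both Has1 and Spaca6, held 2.44 and 3.28 kb against 2.62 and 2.75 kb. Peaks in ASC alone made up 7 of the 13 regions and 84.7% of the difference, led by chr17:17790902-17793414, below the gene, with 2.40 and 2.43 kb. Over the genome such regions were 19.9% of all and held 62.9% of the net difference. The start windows of Fpr1 and Fpr2, receptors of leukocytes in the same locus, had 0 kb in every library.

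**Figure D3:**
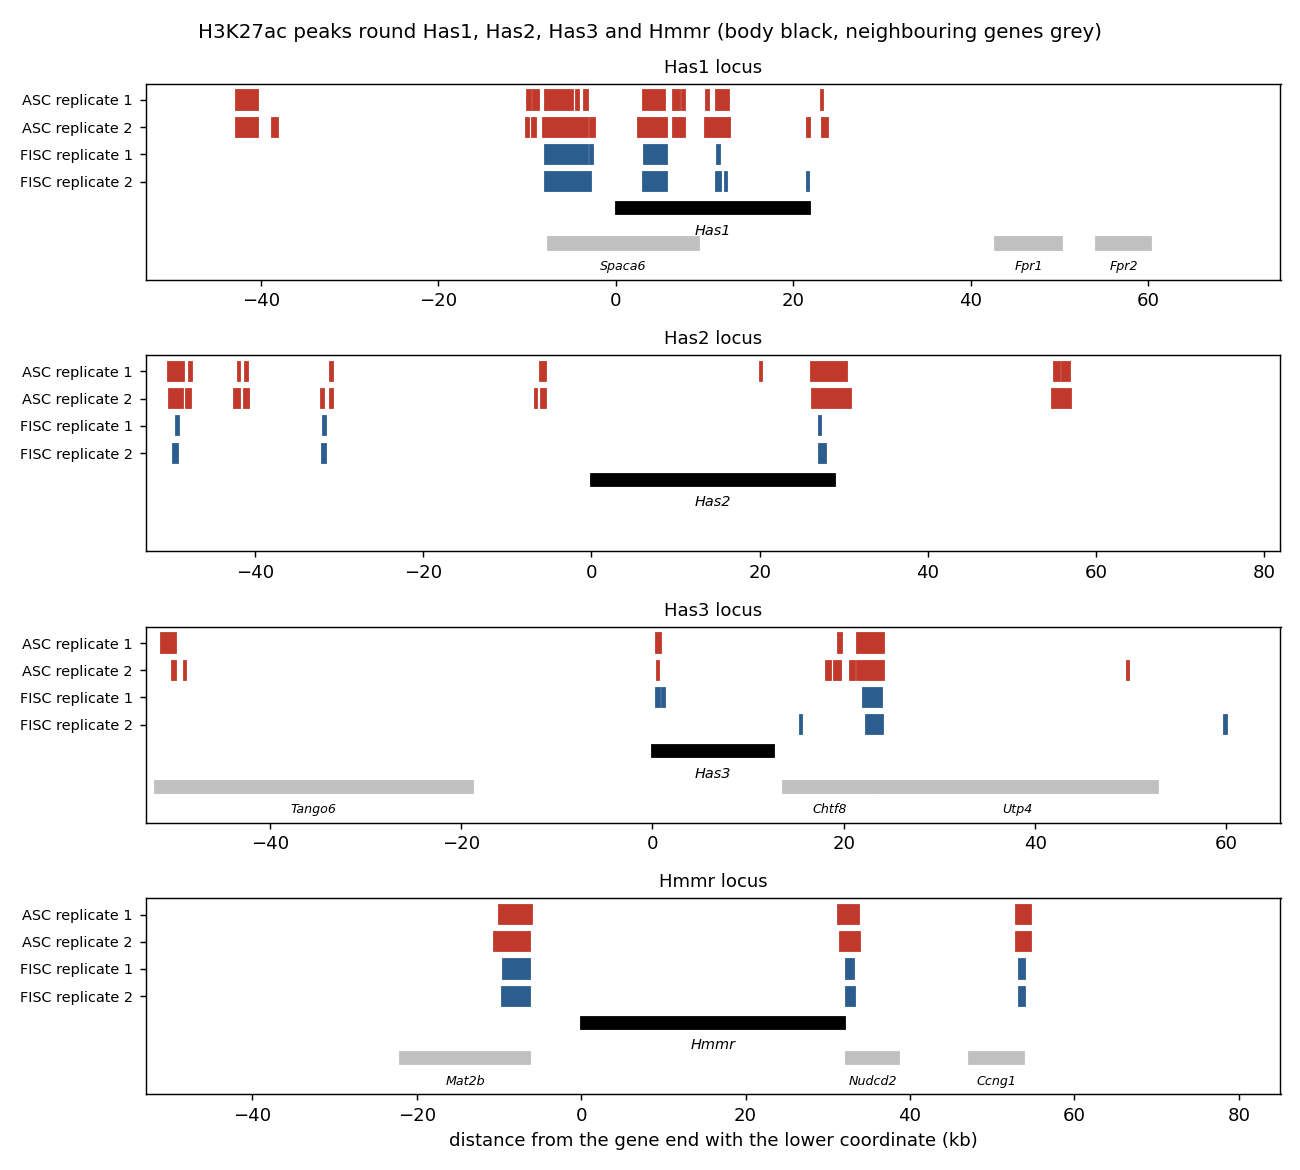
Peaks of the 4 libraries (rows) round Has1, Has2, Has3 and Hmmr by distance from the gene end with the lower coordinate (kb, x axes); black bars are the named genes, grey bars neighbouring protein-coding genes. At Has2 a wide peak at the right gene end and several distant peaks appear in both ASC libraries, whereas the 3 regions of the Hmmr locus and the widest region of the Has3 locus have a peak in all 4 libraries.

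Has3 showed no separation at its own ends. Has3 (gene 15118, chr8:106870242-106882902) had 0.549 and 0.205 kb in its end windows in ASC and 0.648 and 0 kb in FISC (difference 0.05 ± 0.246 kb, limma adjusted p = 0.886), and the groups overlapped. The locus held 3.97 and 5.50 kb against 2.60 and 2.21 kb, and that difference of 2.33 ± 0.538 kb passed (limma adjusted p = 0.00472), but not after division by total covered length (0.76 kb, 0.109), at equal covered length (0.65 kb, 0.0895) or with no filter (0.0945). Start windows of other genes held 2.79 and 2.88 kb of the locus in ASC and 1.95 and 1.93 kb in FISC, which is 38.3% of the difference. Outside all start windows lay 0.625 and 2.42 kb in ASC and 0 and 0.275 kb in FISC, or 59.4%. The widest region (chr8:106891610-106894489) covers the starts of Chtf8, a subunit of a clamp loader of DNA replication, Derpc and Utp4, a ribosome biogenesis factor. The Chtf8 window rose from 1.95 and 1.73 kb in FISC to 2.79 and 2.88 kb in ASC (limma adjusted p = 0.0101), and the windows of Derpc (0.0097) and Utp4 (0.0107), which share its peak, did likewise. These 3 calls were lost without either FISC library, with limma adjusted p-values of 0.0601 to 0.0839, and their differences turned negative after division by total covered length. Tango6, a Golgi-related gene on the other side, had 0.881 and 1.12 kb against 0.846 and 0.906 kb (limma adjusted p = 0.495).

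Hmmr differed by wider peaks in the same places. Hmmr (gene 15366, chr11:40701388-40733464) had 2.58 and 2.47 kb in its start window in ASC and 1.02 and 1.07 kb in FISC. The difference of 1.48 ± 0.126 kb passed (limma adjusted p = 0.00318), also after division by total covered length (0.74 kb, 0.0195), and missed the threshold narrowly without FISC replicate 2 (1.51 kb, 0.0506). Nudcd2, a chaperone-like gene, starts in the same window 0.181 kb away and has the same values, so acetylation there cannot be assigned to either gene. The locus held 8.34 and 8.51 kb against 5.15 and 5.30 kb (difference 3.20 ± 0.672 kb, limma adjusted p = 0.00283). This call was lost without FISC replicate 1 (3.12 kb, 0.0878), without FISC replicate 2 (3.28 kb, 0.0701) and after division by total covered length (0.22 kb, 0.714). All 3 regions of the locus had a peak in all 4 libraries, the others lying at Mat2b, a subunit of methionine adenosyltransferase, and at Ccng1, a cyclin induced by p53. The window of Mat2b had 3.24 and 3.73 kb against 2.85 and 2.95 kb (limma adjusted p = 0.0847). That of Ccng1 rose (1.81 and 1.80 kb against 0.749 and 0.747 kb, 0.00518), though not without FISC replicate 1 (limma adjusted p = 0.0605) or FISC replicate 2 (0.0642).

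Over the 5 loci the peaks merged into 71 regions. Of these, 26 (36.6%) had a peak in both ASC libraries and no FISC library, beside 19.9% of the 72585 regions of the genome, and 0 were of FISC alone, beside 7.3%. Cd44 was chosen for its gain and holds 10 of the 26, so these shares describe the list. The count of 26 fell to 3, beside 3 regions of FISC alone, at equal covered length. Has1 and Has2 had 7 each, Has3 had 2 and Hmmr had 0. The order of the loci by breadth in ASC was Cd44, Has1, Has2, Hmmr and Has3. Has1 and Has2 neighbour each other in that order at 15.1 ± 3.26 and 10.7 ± 1.37 kb (SD, n = 2), and their ASC libraries did not overlap. In neither condition did any pair of neighbours in the order overlap. In FISC the order was Has1, Cd44, Hmmr, Has3 and Has2, so Has2 went from the narrowest locus to the third. Locus sizes lie between 112.7 kb (Has3) and 190.5 kb (Cd44), which limits such a comparison.

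Other genes of the hyaluronan system were taken from a list of 52, all matched in the annotation. Of those named below, Cemip2, Ank3 and Tlr4 have no annotated start, so windows round both their gene ends were summed. Start windows of 34 were covered in at least 2 libraries and tested: 14 rose, 2 fell and 18 did not pass. That is 41.2% rising, beside 26.7% of all start windows tested, and the median difference was 0.46 kb beside 0.30 kb. Vcan, Itih1, Spp1 and Habp2, among the rises, had cover in ASC alone and entered the test only through the group where they are high. Hapln3, among the falls, had cover in FISC alone. Their calls are therefore partly set by the filter, which was the same for all start windows. Over loci, 27 of 49 rose and 3 fell, beside 50.3 and 5.49% of all loci, with a median of 2.65 kb beside 1.32 kb. After division by total covered length 5 start windows rose and 10 fell, and 20 loci rose and 16 fell. Over all genes, 7.72% of 12835 start windows and 23.2% of 17542 loci rose by that division, and 4960 and 6089 fell. At equal covered length 8 start windows rose and 6 fell, and 15 loci rose and 7 fell. Over all genes, 16.7% of 12102 start windows and 20.2% of 16817 loci rose there, and 1569 and 3458 fell. The start-window counts also rest on single libraries: with any 1 library left out, fewer of the pathway windows rose and no fall was called. Rises also became fewer over all start windows, so this is no trait of the list. Of the genes named next as rising, Vcan, Itih1, Spp1 and Ank3 kept their calls after division by total covered length. Cemip2 (limma adjusted p = 0.0612), Met (0.134), Ugdh (0.204), Layn (0.319), Hyal3 (0.505), Adam10 (0.77) and Uap1 (0.78) lost theirs. Of those that kept theirs, Vcan alone also passed at equal covered length (limma adjusted p = 0.00684). Itih1 and Spp1 gave no value there, and Ank3 did not pass (0.0611). The call of Ank3 was also lost with no filter (limma adjusted p = 0.105) and with windows of 1 kb (0.2).

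**Figure D4:**
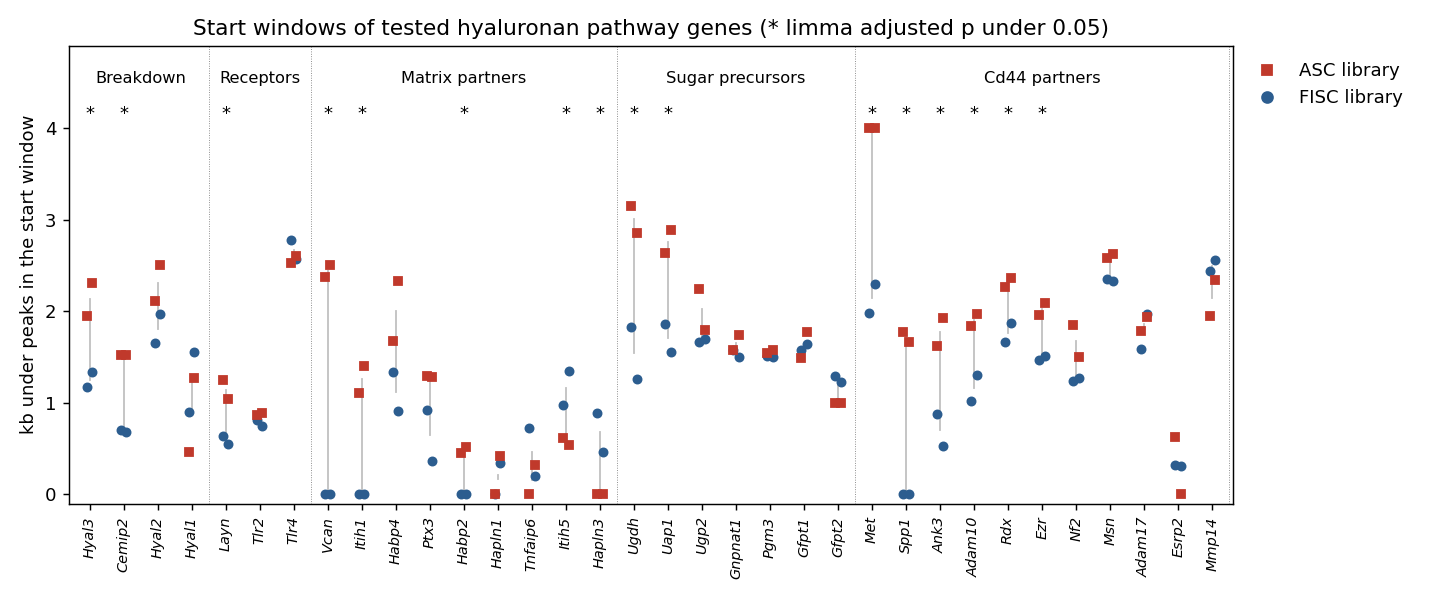
Kb under peaks in the start window (y axis) of the 34 tested hyaluronan pathway genes (x axis, by functional group); squares are ASC libraries, circles FISC libraries, grey lines join the means and asterisks mark a limma adjusted p under 0.05. Vcan, Itih1 and Spp1 have no cover in FISC, and Hapln3 and Itih5 carry the asterisks for a fall.

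Matrix partners of hyaluronan were split. Of 9 tested start windows 3 rose, 2 fell and 4 did not pass, beside 26.7% rising and 3.59% falling of all start windows. No fall was called with any 1 library left out. Vcan, the large proteoglycan versican, whose head binds hyaluronan, had 2.38 and 2.50 kb in ASC and 0 and 0 kb in FISC (difference 2.44 kb, limma adjusted p = 0.0015). It passed in each of the 11 alternatives that gave a value, which do not include leaving out an ASC library. As Vcan and Itih1 had cover in ASC alone, both could enter the test only through that group. Itih1, a heavy chain that is transferred to hyaluronan, had 1.11 and 1.41 kb against 0 and 0 kb (limma adjusted p = 0.00506), lost without either FISC library (0.0615 and 0.0664). Hapln3, a link protein, went the other way, with 0 and 0 kb in ASC and 0.893 and 0.466 kb in FISC (limma adjusted p = 0.0329), lost without either ASC library (0.0832 and 0.111). Habp4 had 1.67 and 2.34 kb against 1.33 and 0.907 kb (limma adjusted p = 0.064), and passed without ASC replicate 1 (0.0215). At locus level 12 of 17 tested matrix partners (70.6%) rose and 1 fell, beside 50.3 and 5.49% of all loci. The loci of Itih1, Itih3 and Itih4, of Bcan and Hapln2, and of Acan and Hapln3 overlap within each group. The 12 rises are therefore fewer independent places. The locus of Itih2, which rose, also overlaps that of Itih5, which fell. That of Vcan, which rose, overlaps that of Hapln1, which did not pass.

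Of 7 genes of the sugar precursors 2 (28.6%) rose at the start and 5 did not pass, a share near the 26.7% of all start windows. Ugdh, which makes the UDP-glucuronate that Has enzymes use, had 3.15 and 2.86 kb against 1.83 and 1.26 kb (limma adjusted p = 0.0131; 0.0745 without FISC replicate 2). Uap1, which makes the other sugar donor, had 2.63 and 2.89 kb against 1.87 and 1.56 kb (limma adjusted p = 0.0141; 0.0636 without FISC replicate 1 and 0.0967 without FISC replicate 2). Ugp2 (2.25 and 1.80 kb against 1.67 and 1.70 kb, limma adjusted p = 0.205) and Gfpt2 (1.0 and 1.0 kb against 1.29 and 1.23 kb, 0.135) did not pass. Among 4 tested breakdown genes 2 rose. Cemip2, a transmembrane protein of hyaluronan breakdown, had 1.52 and 1.53 kb against 0.705 and 0.681 kb (limma adjusted p = 0.00822; 0.0742 and 0.0829 without FISC replicates 1 and 2). Hyal3 had 1.95 and 2.31 kb against 1.17 and 1.34 kb (limma adjusted p = 0.0209). Its call was lost without ASC replicate 2 (0.05) and without FISC replicate 1 (0.123) or 2 (0.102). The neighbouring hyaluronidase genes Hyal1 (0.462 and 1.28 kb against 0.898 and 1.56 kb, limma adjusted p = 0.453) and Hyal2 (2.12 and 2.51 kb against 1.65 and 1.97 kb, 0.11) did not pass.

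Of 11 tested start windows of Cd44 partners 6 (54.5%) rose and none fell, beside 26.7 and 3.59% of all start windows. Met, the receptor of hepatocyte growth factor, for which Cd44 can act as a co-receptor, was covered over its whole window in ASC (4.0 and 4.0 kb) and had 1.98 and 2.30 kb in FISC (limma adjusted p = 0.00354). Spp1, the Cd44 ligand osteopontin, had 1.77 and 1.67 kb in ASC and 0 and 0 kb in FISC (limma adjusted p = 0.00214). Spp1 entered the test through its ASC cover alone. The call of Met held without each library in turn and that of Spp1 without each FISC library, the ones that could be left out in its case. With windows of 1 kb the call of Met was lost (0.203 kb, limma adjusted p = 0.0619). With −log10 q of at least 5 that of Spp1 was lost (0.8675 kb, limma adjusted p = 0.0849). Spp1 gave no value with fold enrichment of at least 5 or at equal covered length. Ank3, an ankyrin of the membrane skeleton, had 1.62 and 1.93 kb against 0.884 and 0.533 kb (limma adjusted p = 0.0155; 0.0658 and 0.103 without FISC replicates 1 and 2). Adam10, a protease that sheds Cd44, had 1.84 and 1.97 kb against 1.02 and 1.31 kb (limma adjusted p = 0.0243). Its call was lost without ASC replicate 2 (0.0722) and without FISC replicate 1 (0.126) or 2 (0.0829). Of the 3 other receptors tested, Layn, the lectin-type receptor layilin, rose (1.25 and 1.04 kb against 0.634 and 0.554 kb, limma adjusted p = 0.0314). This was lost without ASC replicate 1 (0.0874) and without FISC replicate 1 (0.134) or 2 (0.177), and at equal covered length the difference turned to -0.59 kb. The Toll-like receptor genes Tlr2 (0.866 and 0.890 kb against 0.819 and 0.751 kb, limma adjusted p = 0.523) and Tlr4 (2.53 and 2.60 kb against 2.78 and 2.58 kb, 0.57) did not pass.

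The loci whose breadth was nearest to that of Cd44 over the 4 libraries, by root mean square difference, were those of Shb, Met, Myo10 and Vmp1, in that order. Shb, a signalling adaptor, was nearest at 0.908 kb, with 35.2 and 43.5 kb in ASC and 8.43 and 8.84 kb in FISC. Met, already among the Cd44 partners, followed at 1.64 kb, with 33.9 and 43.5 kb against 8.46 and 9.62 kb. Myo10, a myosin of filopodia, stood at 2.21 kb and Vmp1, a membrane protein of autophagy, at 2.47 kb. This likeness rests on 4 values a gene, and the differences of these loci lay between 29.7 and 36.9 kb.

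The labelled cell type was checked by start windows of marker genes. All 10 satellite cell markers were covered in at least 2 libraries, with summed windows of 26.9 and 28.1 kb in ASC and 27.9 and 29.9 kb in FISC. Within this list Itga7 (4.0 and 4.0 kb against 1.59 and 1.75 kb, limma adjusted p = 0.00208) and Vcam1 (0.0287) rose. Calcr, a receptor of quiescent satellite cells, fell (0 and 0 kb against 1.5 and 0.947 kb, limma adjusted p = 0.0131), as did Chrdl2 (0.551 and 0.297 kb against 2.71 and 4.47 kb, 0.0173). Cd44 is also abundant in leukocytes. Of 9 myeloid markers 5 (Ptprc, Adgre1, Itgam, Lyz2 and Tyrobp) had 0 kb in every library, and the sum of all 9 was 3.47 and 4.92 kb in ASC and 2.13 and 2.02 kb in FISC. Among them Cd14, a co-receptor for bacterial lipopolysaccharide, rose (1.46 and 1.48 kb against 0.586 and 0.704 kb, limma adjusted p = 0.0094). Spi1, the largest term of the sum in every library, had 1.75 and 1.56 kb against 1.05 and 1.31 kb (limma adjusted p = 0.0723). Cd68 had 0.266 and 1.54 kb against 0.493 and 0 kb (limma adjusted p = 0.288), so neither passed. The 4 lymphoid markers had 0 kb in all libraries. Of 7 fibro-adipogenic markers 4 had 0 kb throughout, Pdgfra among them. Their sum was 5.14 and 6.49 kb in ASC and 4.57 and 4.77 kb in FISC. Within it Ly6a (the antigen Sca-1) rose from 0 and 0 kb to 1.44 and 2.42 kb (limma adjusted p = 0.0144), and Dpt fell from 2.37 and 2.27 kb to 0.762 and 1.26 kb (0.0113). Col3a1, the largest term in both ASC libraries, had 2.94 and 2.81 kb in ASC and 2.20 and 2.51 kb in FISC (limma adjusted p = 0.0669). Of 6 endothelial markers 3 had 0 kb throughout, and their sum was 1.22 and 1.79 kb in ASC and 2.10 and 2.56 kb in FISC. The 5 smooth muscle and pericyte markers summed to 2.85 and 3.48 kb in ASC and 4.95 and 4.39 kb in FISC, where Pdgfrb (limma adjusted p = 0.0134) and Cspg4 (0.0255) fell. These marker genes are named by their calls or by their cover, after their values were seen. Ly6a had cover in ASC alone and Calcr in FISC alone, so each entered the test only through the group where it is high. Over all tested start windows 26.7% rose and 3.59% fell. Itga7, Vcam1, Chrdl2, Cd14, Spi1, Ly6a and Pdgfrb have no annotated start, so their values sum windows round both gene ends. Which end held the cover was not examined, so 4.0 kb at Itga7 need not be a fully covered start. The marker calls were not examined under the alternatives used for the other named genes. The part of the myeloid and fibro-adipogenic sums in the differences at Cd44 and Has2 was not tested.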

How the data were processed

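H3K27ac libraries of ASC and FISC, 2 each, were compared from the peak lists the authors deposited, 1 a library. The submitters' processing notes name the build mm10, MACS2, Picard, BWA and bcl2fastq 2.19. Not given in the sources used here are settings, other versions and whether inputs served as controls. The deposited columns hold fold enrichment, a ratio to local background, and −log10 p and −log10 q, with a score equal to the whole part of 10 times −log10 q. Fold enrichment is the authors' value and only describes peaks within a list. Depth is not in the lists, so no interval on counts is given.

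Breadth (kb under peaks, linear scale, unscaled) was computed with Python 3.11.15 for 21887 RefSeq genes on GRCm38.p6. An annotated start was used for 79.9% of genes and both ends for the other 4395. limma 3.58.1 in R 4.3.3 (eBayes with trend) took every gene with cover in 2 or more libraries, with Benjamini-Hochberg adjustment over all genes tested and a threshold of 0.05. The method was tested on simulated data. Regions are unions of peaks that share at least 1 base. The regions are counted whole where they cross a locus edge, while breadth is clipped there. Members, lists, motifs and tests were chosen with earlier results of these data, and for motifs these sequences, known. Named are the 5 genes, protein-coding genes overlapping their loci, up to 4 genes of each pathway group by absolute start-window difference, and the 5 loci nearest to Cd44 (predicted genes and overlapping loci left out), of which 1 is not reported here. Genes named by their absence of peaks or by shared peaks were picked after their values were seen. Alternatives were stricter peaks (−log10 q or fold enrichment of at least 5), lists of equal number or covered length, other windows, no filter, division by total covered length, a replicate block and leaving out each library.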

Additional observations from a re-analysis of the deposited data

How the results depend on the processing

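The breadth of the lists limits what these comparisons show. The Cd44 locus difference was 20.2 kb with flanks of 20 kb, 39.8 kb with 100 kb, 22.7 kb after division by total covered length, 21.0 kb at equal covered length, and 28.8 to 35.6 kb with 1 library left out. After division by total covered length 4062 loci rose and 6089 fell (start windows 991 and 4960; pathway start windows 5 and 10; pathway loci 20 and 16). At equal covered length the counts were 3389 and 3458 loci, 2018 and 1569 start windows, 8 and 6 pathway start windows, 15 and 7 pathway loci, and 3 and 3 member regions of ASC and of FISC alone. With no filter they were 5840 and 536 loci, 1101 and 148 start windows, 5 and 0 pathway start windows, and 20 and 1 pathway loci. With fold enrichment of at least 5, 533 loci and 277 start windows fell, with 1 pathway locus and 0 pathway start windows lower and 17 regions of ASC alone. With −log10 q of at least 5, 13 such regions and 0 pathway start windows lower were left. Lists of equal number gave 17 and 2 regions, and joining peaks within 500 bases gave 14 of ASC alone. Windows of 1 kb gave 1857 rises and 221 falls.

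Leaving out 1 library gave 4988 to 10645 loci higher and 539 to 1248 lower, and 262 to 3224 start windows higher and 30 to 314 lower. It gave 20 to 31 pathway loci higher and 1 to 3 lower, 3 to 9 pathway start windows higher and 0 lower, and 27 to 47 regions of ASC and 0 to 2 of FISC alone. The lone library left in a condition is then assumed to vary like the others, and start-window calls were fewest without FISC replicate 2 (262 rises) and without FISC replicate 1 (402).

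Replicate numbers are shared by the conditions only as numbers: deviations of same-numbered libraries correlated at -0.07 over loci and -0.03 over start windows. With a replicate block, 8264 loci rose and 942 fell, 3002 start windows rose and 419 fell, and 12 pathway start windows rose and 1 fell.

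Of single-gene values under alternatives, 336 kept direction and side of the threshold, 74 lost their call, 10 gained one and 16 changed sign. The last were start windows: Has3 (-0.0905 kb by division, -0.047 kb with 5 kb windows, -0.271 to 0.377 kb with 1 library left out), Hyal1 (0.862 kb with 5 kb windows, -0.766 to 0.0485 kb with 1 library left out), Layn (-0.594 kb at equal covered length), Spaca6 (-1.06 to 0.245 kb with 1 library left out) and, by division, Hyal2 (-0.433 kb), Tlr2 (-0.285 kb), Ugp2 (-0.477 kb), Chtf8 (-0.0325 kb), Derpc (-0.162 kb), Mat2b (-0.867 kb), Tango6 (-0.310 kb) and Utp4 (-0.0557 kb). The cause of these changes was not tested. Division by total covered length lowers ASC values and raises FISC values, as the ASC lists cover more.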
